A study of Sus scrofa with 6 samples.

Results

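ATF4 is the transcription factor of the integrated stress response, and the genes described here are ATF4, its partner factors ATF3, DDIT3 and CEBPB, and its stress targets outside amino acid metabolism, NUPR1, TRIB3, SESN2, DDIT4, PPP1R15A and VLDLR. They were chosen by name from this pathway with the comparison of MT with Control in view, so their values in that comparison are a description and carry no test. Of the 10 genes, 9 were matched to a row among the 20731 genes of the deposited table. No row was matched to ATF4 itself, which was not analysed here. A filter of a mean of at least 1 FPKM was passed by 8 of the 9, and DDIT3 lay below it.

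The integrated stress response begins when one of several kinases phosphorylates the translation initiation factor eIF2, after amino acid shortage, unfolded protein in the endoplasmic reticulum, haem shortage or double-stranded RNA. General translation then drops while the ATF4 mRNA is translated more, and the ATF4 protein binds DNA in pairs with other bZIP proteins (basic leucine zipper factors), among them the C/EBP proteins. Its targets include feedback proteins that end the response as well as genes that slow growth or, when stress lasts, favour cell death.

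The samples were pig immature Sertoli cells, which nourish germ cells in the testis, and RNA was sequenced from 3 libraries labelled Control and 3 labelled MT. MT stands for melatonin, a pineal hormone, given at 10 nM for 36 h, and no solvent, dose or time is given for the Control cells. The labels give no age or strain of the animals, call the cells both a cell line and a genotype by the same name, and leave unsaid whether the replicates are separate cultures, so any p-value speaks only to library-to-library spread, which may be technical. Values are FPKM (fragments scaled by gene length and by library size), so levels of different genes can be compared per length.

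The 6 libraries held 19579279 to 21500665 reads each, as recovered from the FPKM values. Control 3 stood apart: its correlation across the 10950 tested genes was 0.938 and 0.939 with the other Control libraries and 0.952 to 0.975 with the MT libraries, and 2.73% of its reads were mitochondrial mRNA, where the other libraries had 4.37% to 5.58%. Many differences that move by over 1.5 times without it are therefore given both ways. For some genes that rose or fell without it, only the value from that fit is given. Of 20 Sertoli cell markers, 14 had a row and 7 reached a mean of 1 FPKM. CLU (2908 to 3894 FPKM), VIM (2249 to 3175), WT1 (10.0 to 12.8), AMH (11.3 to 15.6) and SOX9 (1.61 to 2.40) were present. INHA, KITLG, DMRT1, NR5A1 and DHH stayed at or under 0.10 FPKM, and TF and GDNF reached at most 0.48 and 0.64. GATA4 and FSHR were not analysed here. The summed Sertoli markers ranged from 5573 to 6612 FPKM in Control against 6585 to 6952 in MT. VIM and CLU held most of this sum, so it says little about the other Sertoli markers. Sums for other cells were 174.5 to 279.9 and 178.8 to 210.4 FPKM for smooth muscle, 3.85 to 4.35 and 3.74 to 4.87 for Leydig cells, 0.78 to 1.39 and 1.28 to 1.53 for germ cells, 9.38 to 12.2 and 11.6 to 13.3 for leukocytes and 0.16 to 0.31 and 0.15 to 0.32 for endothelium. TAGLN (154 to 257 FPKM) held most of the smooth muscle sum, while ACTA2 and MYH11 reached at most 0.21 and 0.04. CD14 and CD68 held most of the leukocyte sum, while CSF1R and CD163 reached at most 0.05 and 0.006. These sums therefore say little about the other markers of those cells. The part of these cells in the results was not tested.

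NUPR1 (ENSSSCG00000040162), TRIB3, SESN2 and VLDLR were each higher in all 3 MT libraries than in any Control library. CEBPB was lower in all 3 MT libraries, and ATF3, PPP1R15A, DDIT4 and DDIT3 overlapped between the groups. Groups that did not overlap, 4 genes higher and 1 lower out of 9, stand beside 6.24% and 4.99% of the 10950 tested genes, and nothing is read from this since the comparison chose the genes. The median log2 difference of the 9 genes was 0.09, against 0.02 for all tested genes, and without Control 3 the medians were 0.19 and -0.00. In RNA of a whole culture, a change in the share of cells that express a gene and a change in RNA per cell cannot be told apart.

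**Figure D1:**
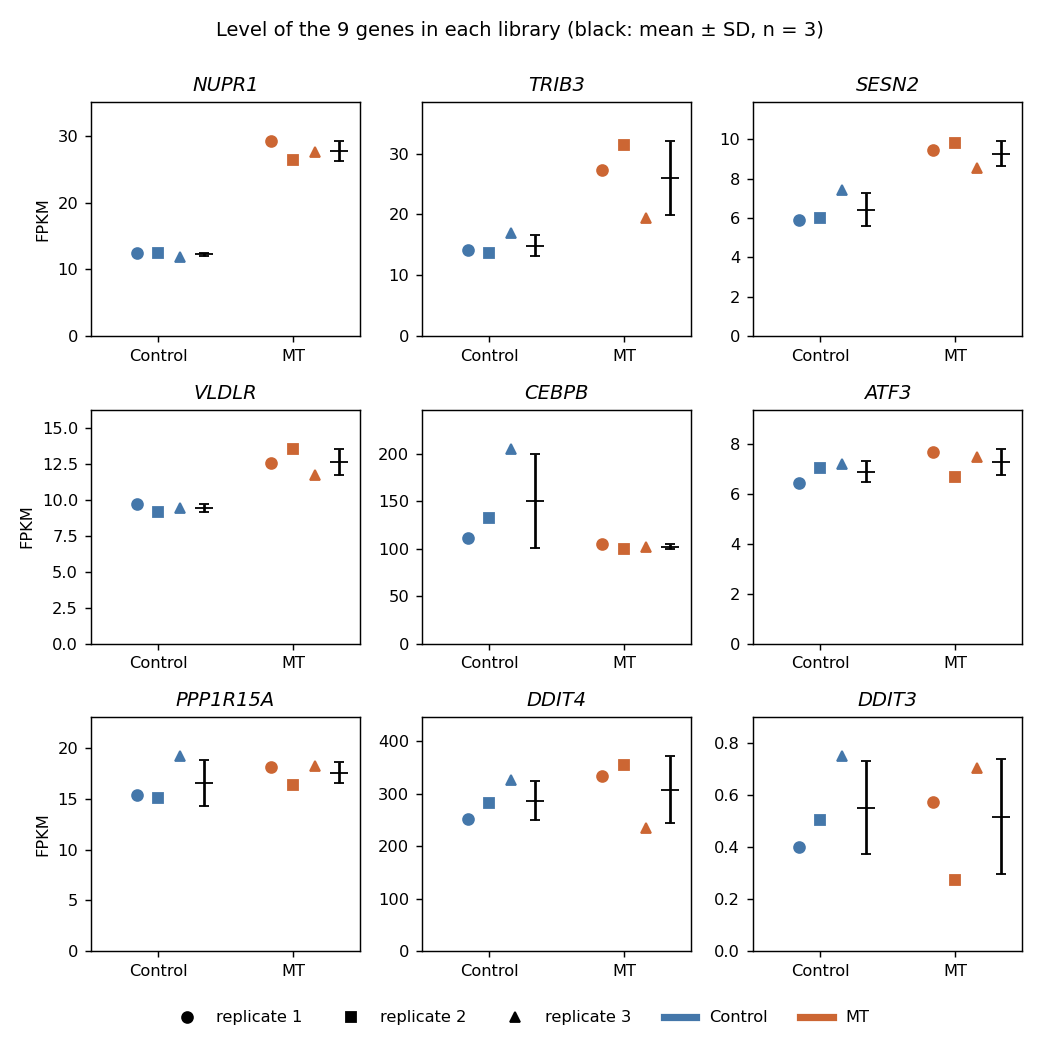
FPKM of the 9 genes in each library, on linear axes that start at 0. Blue points are Control and orange points MT, the shapes give the replicate, and the black bars give the mean ± SD of 3 libraries. NUPR1, TRIB3, SESN2 and VLDLR show orange points above all blue points, while the high Control point of CEBPB at 205 FPKM is Control 3.

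NUPR1, a small stress-induced chromatin protein that acts with transcription factors, lies on chromosome 3 from 18402781 to 18404411 of Sscrofa11.1. The Control libraries 1, 2 and 3 held 12.4, 12.4 and 11.9 FPKM, and 29.2, 26.3 and 27.5 FPKM were found in MT 1, 2 and 3. The lowest MT library was 14.0 FPKM above the highest Control library, and Control 3 was close to the other Control libraries. The mean was 12.2 ± 0.28 FPKM in Control against 27.7 ± 1.46 in MT (SD, n = 3), a 2.27-fold level and a log2 difference of 1.12 on the log2(FPKM + 1) scale. Without Control 3 the log2 difference was 1.10, and with any 1 library left out it was 1.08 to 1.15. These values rest on 177 to 459 reads, with a counting error of 4.67% to 7.52% per library, which is larger than the spread of 2.30% seen between the Control libraries.

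TRIB3 (ENSSSCG00000039862), a pseudokinase that binds the kinase AKT and holds back ATF4 and CHOP, lies on chromosome 17 from 34808273 to 34819592. Its levels were 14.1, 13.6 and 16.9 FPKM in Control 1 to 3 and 27.3, 31.3 and 19.4 FPKM in MT 1 to 3. The MT libraries were spread more widely than for NUPR1, and MT 3 was only 2.48 FPKM above Control 3. The mean was 14.9 ± 1.78 FPKM in Control against 26.0 ± 6.08 in MT (n = 3), 1.75-fold, with a log2 difference of 0.75. Leaving out Control 3 gave 0.84, and single libraries left out gave 0.60 to 0.94.

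SESN2 (ENSSSCG00000029438), a sestrin that restrains the growth kinase complex mTORC1 when leucine is short, lies on chromosome 6 from 85321982 to 85348044. It was at 5.90, 5.99 and 7.40 FPKM in Control against 9.48, 9.79 and 8.54 FPKM in MT, in the order of the replicates. The groups were apart by 1.14 FPKM, with Control 3 nearest to the MT libraries. Means were 6.43 ± 0.85 and 9.27 ± 0.65 FPKM (n = 3), 1.44-fold, with a log2 difference of 0.47 over 6 libraries and 0.56 without Control 3.

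VLDLR (ENSSSCG00000005229), the very low density lipoprotein receptor, takes up lipoproteins and also binds reelin, and has been described as an ATF4 target in stressed mouse liver. It lies on chromosome 1 from 219178501 to 219210332. Control libraries held 9.69, 9.14 and 9.40 FPKM and MT libraries 12.6, 13.6 and 11.8 FPKM. The nearest libraries of the groups were 2.07 FPKM apart, and Control 3 lay between the other Control libraries. With means of 9.41 ± 0.27 and 12.6 ± 0.91 FPKM (n = 3), the level in MT was 1.34-fold that in Control, a log2 difference of 0.39 both with and without Control 3.

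CEBPB (ENSSSCG00000034207), a C/EBP factor that pairs with ATF4 and CHOP and also serves inflammatory signalling, lies on chromosome 17 from 51722633 to 51723673. The Control libraries stood at 111, 133 and 205 FPKM and the MT libraries at 105, 99.8 and 102 FPKM. The MT libraries were close together, Control 1 was 6.46 FPKM above the highest of them, and Control 3 was far above all others. Means were 149.8 ± 49.3 FPKM in Control against 102.2 ± 2.55 in MT (n = 3), 0.68-fold, a log2 difference of -0.50. Without Control 3 the difference was -0.25 and the fold 0.84, so that library carried much of the gap.

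ATF3 (ENSSSCG00000015595), a bZIP repressor and early stress factor, lies on chromosome 9 from 130772259 to 130829678. It was at 6.42, 7.04 and 7.21 FPKM in Control against 7.68, 6.68 and 7.48 in MT. These values overlapped, and the means of 6.89 ± 0.42 and 7.28 ± 0.53 FPKM (n = 3) differed by less than the spread of either group, with a log2 difference of 0.07, or 0.10 without Control 3.

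PPP1R15A (GADD34, ENSSSCG00000003155), the subunit that directs phosphatase PP1 to eIF2 and so ends the response, lies on chromosome 6 from 54172038 to 54175461. Its levels were 15.4, 15.1 and 19.2 FPKM in Control against 18.1, 16.3 and 18.2 FPKM in MT. Control 3 lay above all MT libraries, and the other Control libraries lay below them all. The log2 difference was 0.09 over 6 libraries and 0.19 without Control 3, and the means were 16.5 ± 2.28 and 17.5 ± 1.05 FPKM (n = 3).

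DDIT4 (REDD1, ENSSSCG00000031888), which restrains mTORC1 through the TSC complex, lies on chromosome 14 from 75117708 to 75119907. It was the most abundant of the 9 genes, above 98.8% of tested genes by its mean level. Control libraries held 252, 283 and 327 FPKM and MT libraries 334, 355 and 235. MT 3 lay below every Control library while MT 1 and MT 2 lay above every one. The log2 difference was 0.09, and it turned to -0.03 without MT 2 and was 0.27 without MT 3 and 0.18 without Control 3, so its sign depended on single libraries. Its means were 287.4 ± 37.7 and 308.1 ± 63.8 FPKM (n = 3).

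DDIT3 (CHOP, ENSSSCG00000050998), the C/EBP family factor that ATF4 induces and that drives cell death in lasting stress, lies on chromosome 5 from 22785441 to 22789867. It was nearly absent, at 0.40, 0.50 and 0.75 FPKM in Control against 0.57, 0.27 and 0.70 FPKM in MT, and the groups overlapped, with log2 differences of -0.04 and, without Control 3, 0.05. These levels rest on 7, 9, 14, 11, 5 and 13 reads in the same order. The Control libraries held 30 reads in all (exact Poisson 95% interval 20.2 to 42.8) and the MT libraries 29 (19.4 to 41.6), intervals that cover counting error only, so a moderate difference was not detectable at this depth. In the RefSeq annotation the gene overlaps the end of MARS, and the strand setting of the counting is not given, so how shared reads were handled is unknown.

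**Figure D2:**
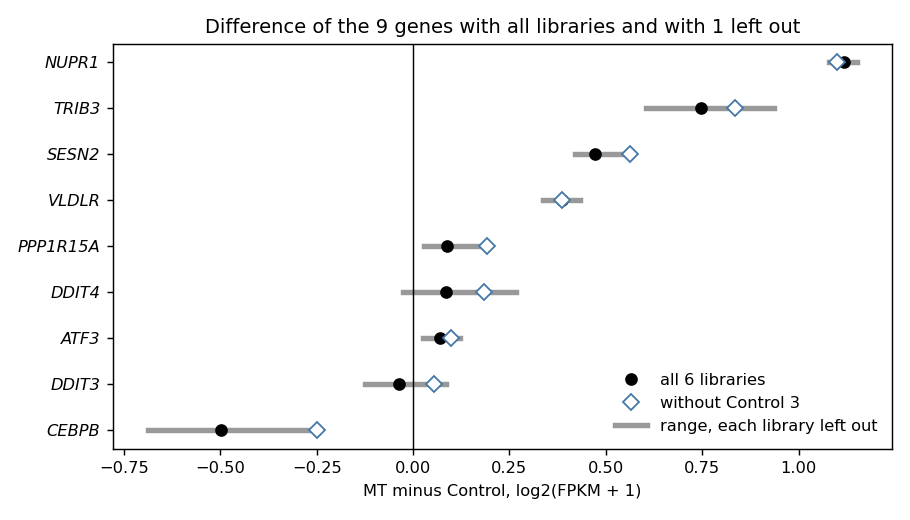
Difference of MT from Control on the log2(FPKM + 1) scale for each of the 9 genes. Black points use all 6 libraries, open diamonds leave out Control 3, and grey bars span the values with each library left out in turn. NUPR1 is at 1.12 with a short bar, CEBPB moves from -0.50 to -0.25 without Control 3, and the bars of DDIT4 and DDIT3 cross 0.

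The genes differed widely in level and in spread. In Control the order of mean FPKM was DDIT4, CEBPB, PPP1R15A, TRIB3, NUPR1, VLDLR, ATF3, SESN2 and DDIT3, and neighbouring ranges overlapped only for PPP1R15A with TRIB3 and for ATF3 with SESN2. In MT the order was DDIT4, CEBPB, NUPR1, TRIB3, PPP1R15A, VLDLR, SESN2, ATF3 and DDIT3, and only NUPR1 and TRIB3 overlapped. NUPR1 and TRIB3 thus both stood above PPP1R15A in MT and below it by mean in Control, and SESN2 stood above ATF3 in every MT library.

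The MT libraries did not vary alike for all genes. TRIB3, SESN2, DDIT4 and VLDLR were each highest in MT 2 and lowest in MT 3, an order shared by 18.1% of tested genes. NUPR1, by contrast, was highest in MT 1 and lowest in MT 2. Among the Control libraries, Control 3 was the highest for 7 of the 9 genes, as it was for 45.3% of tested genes, with NUPR1 and VLDLR as the exceptions.

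Genes with the profile nearest to NUPR1 and TRIB3 were sought by the root mean square distance between log2(FPKM + 1) profiles over the 6 libraries, each centred on its own mean. Nearest to NUPR1 were KIF1A, a kinesin motor (distance 0.09), IGFBP5, which binds insulin-like growth factors (0.17), and TMEM38A, a potassium channel of the endoplasmic reticulum (0.18). The member nearest to NUPR1 was TRIB3 at 0.30. KIF1A was at 1.45, 1.12 and 1.54 FPKM in Control against 4.42, 3.88 and 4.22 in MT.

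Nearest to TRIB3 were GLI1, the transcription factor of hedgehog signalling (distance 0.11), SLC1A4, a transporter of neutral amino acids (0.12), and LAMB3, a laminin chain (0.12). The member nearest to TRIB3 was SESN2 at 0.20. GLI1 was at 0.97, 0.93 and 0.98 FPKM in Control against 2.66, 3.39 and 1.87 in MT, so it shared with TRIB3 the high MT 2 and the low MT 3. Many genes lie close in 6 libraries, and these distances are a description. They also depend on the added 1, which shrinks changes of low genes. KIF1A, TMEM38A and GLI1 had Control means of 1.37, 0.97 and 0.96 FPKM. Their folds of 3.05, 2.67 and 2.74 were above the 2.27 of NUPR1 and the 1.75 of TRIB3.

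**Figure D3:**
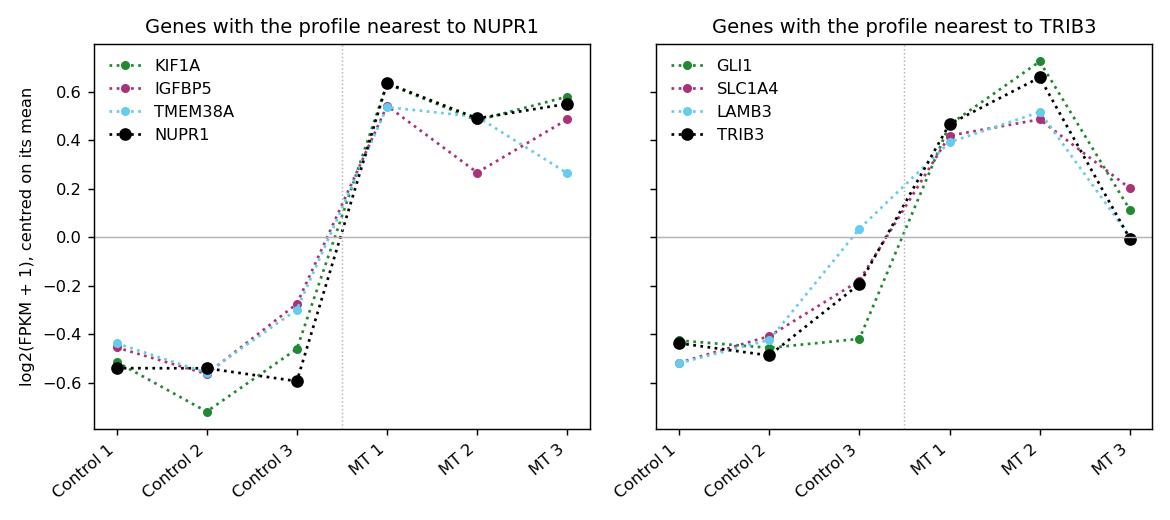
Profiles over the 6 libraries of NUPR1 (left) and TRIB3 (right) in black with the 3 nearest genes in colour, as log2(FPKM + 1) centred on the mean of each gene. Dotted lines only join the points of a gene and imply no order. All 3 genes near NUPR1 are higher in every MT library, and the genes near TRIB3 are highest in MT 2 and lowest in MT 3 among the MT libraries.

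Of 14 listed paralogues, 12 had a row and 11 were tested. In the tribbles family, TRIB1 stood at 29.4 ± 2.18 FPKM in Control against 26.9 ± 0.63 in MT and TRIB2 at 1.96 ± 0.38 and 2.07 ± 0.05 (n = 3). The log2 difference of TRIB2 was 0.06 over 6 libraries and -0.05 without Control 3. The ratio of TRIB3 to TRIB1 was 0.45, 0.46 and 0.62 in Control and 1.0, 1.20 and 0.71 in MT, and these ratios did not overlap. TRIB1 was thus above TRIB3 in every Control library and in MT 3, level with it in MT 1 and below it in MT 2. The groups of TRIB3 alone already did not overlap, so the ratio adds no separate support.

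Among the sestrins, SESN2 was the most abundant in every library. SESN1 stood at 1.22 ± 0.42 FPKM in Control against 1.20 ± 0.10 in MT, and SESN3 at 2.90 ± 1.10 and 3.26 ± 0.34 (n = 3). Control 3 held the lowest level of both, 0.74 and 1.68 FPKM, and without it their log2 differences went from 0.0047 to -0.16 and from 0.17 to -0.08. SESN2 itself was higher in every MT library, and the ratios of SESN2 to either gene overlapped between the groups.

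LRP8, the other reelin receptor beside VLDLR, held 9.37, 9.84 and 12.8 FPKM in the Control libraries and 8.33, 8.51 and 8.34 in the MT libraries. It was lower in every MT library, where VLDLR was higher, with a log2 difference of -0.30 over 6 libraries and -0.17 without Control 3, and it did not pass in limma in either fit. The ratio of VLDLR to LRP8 was 1.03, 0.93 and 0.74 in Control and 1.51, 1.59 and 1.41 in MT. With VLDLR higher and LRP8 lower in every MT library, these ratios could not overlap, so they add no separate support.

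JDP2, a bZIP repressor close to ATF3, was at 2.88, 2.95 and 4.26 FPKM in Control against 4.82, 5.38 and 5.13 in MT. All MT libraries were higher, and JDP2 rose without Control 3 (log2 difference 0.64, adjusted p 0.020 in limma), though over 6 libraries its adjusted p was 0.82 in limma with a log2 difference of 0.50. CEBPD stood at 252.0 ± 49.9 and 202.5 ± 13.0 FPKM (n = 3), and it resembled CEBPB in that Control 3 (309.6 FPKM) was the highest library and all MT libraries lay below all Control libraries. Its log2 difference was -0.30 over 6 libraries and -0.14 without Control 3. The ratio of CEBPB to CEBPD overlapped, at 0.49 to 0.66 in Control and 0.49 to 0.53 in MT. CEBPG was at 7.52 ± 1.26 and 7.44 ± 0.83 FPKM, ATF5 at 12.3 ± 2.92 and 12.2 ± 1.28, and PPP1R15B, the constant partner of PPP1R15A, at 13.5 ± 3.19 and 14.1 ± 0.97 (n = 3). Without Control 3 the log2 difference went from -0.0071 to -0.14 for CEBPG, from 0.00 to 0.17 for ATF5 and from 0.08 to -0.12 for PPP1R15B. CEBPA was at or under 0.02 FPKM.

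**Figure D4:**
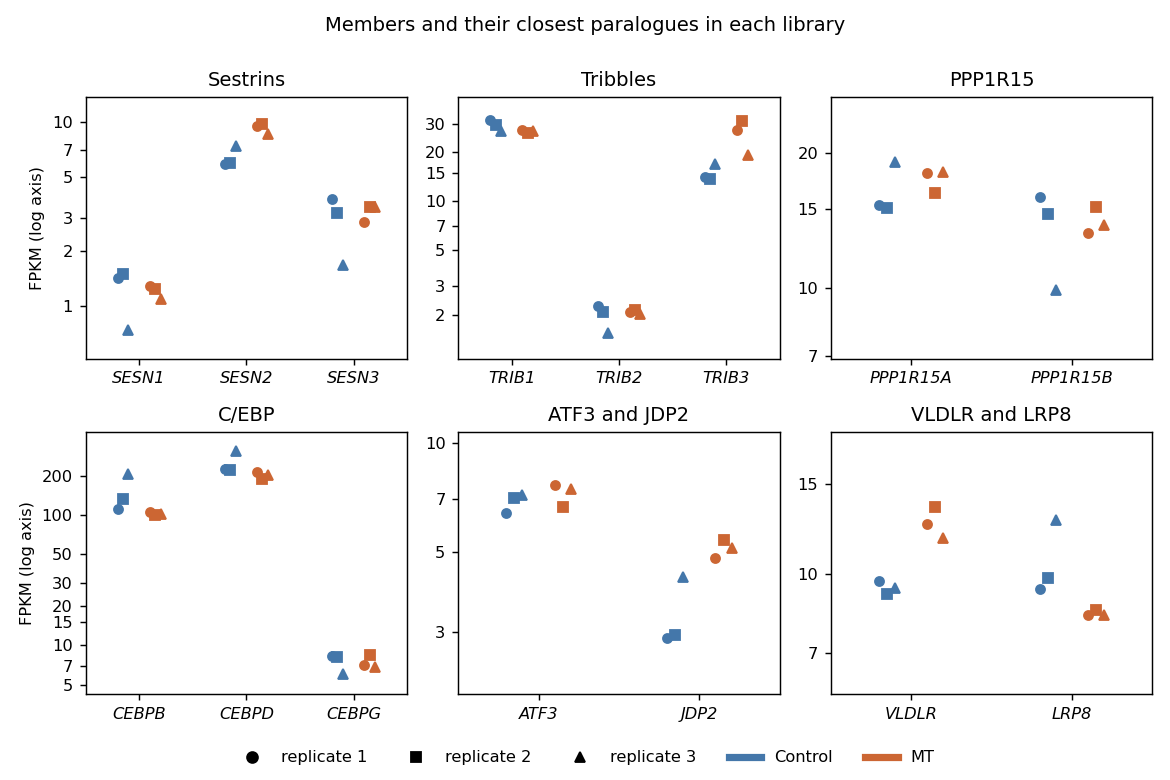
FPKM of members and their tested paralogues in each library, on log axes, with Control in blue, MT in orange and the shape giving the replicate. TRIB3, SESN2 and VLDLR lie higher in MT while their paralogues TRIB1, SESN1 and LRP8 do not, and Control 3 is the lowest library for SESN1, SESN3, TRIB2 and PPP1R15B.

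Other genes of the pathway were taken from 10 lists, 210 tested genes in all, and tested with limma on log2(FPKM + 1) with adjustment over all 10950 tested genes. With 6 libraries 0 of the 210 passed, as did 0 of all tested genes (0%), and 517 genes had an unadjusted p under 0.05, 38 of them on the lists. With limma voom on the recovered reads the counts were 0 passed and 494 at an unadjusted p under 0.05. Without Control 3, 1194 genes passed (10.9%), 4.28% higher and 6.62% lower in MT. On the lists 31 genes rose and 16 fell in that fit, and rises and falls here refer to it. In each list the 3 genes with the smallest p over 6 libraries are named by rule, and other genes that passed without Control 3 are named after their values were seen. The contrast used was the one that chose the members, and these lists were drawn up with earlier results of these data known.

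The eIF2 kinases, which start the response, did not pass in limma in either fit. EIF2AK3 (PERK, for endoplasmic reticulum stress) stood at 5.18 ± 0.80 FPKM in Control against 5.33 ± 0.14 in MT, and EIF2AK4 (GCN2, for amino acid shortage) at 6.65 ± 0.91 and 7.35 ± 0.41. EIF2AK1 was at 8.80 ± 0.76 and 8.62 ± 0.55 and EIF2AK2 at 3.54 ± 1.49 and 2.94 ± 0.50 (all n = 3), and apart from EIF2AK4 these kinases were named after their values were seen. Without Control 3, the lowest library for EIF2AK2 at 1.82 FPKM, its log2 difference went from -0.15 to -0.46, with an adjusted p of 0.0502 in limma, just above the threshold. In the same way the difference went from -0.02 to 0.04 for EIF2AK1, from 0.04 to -0.07 for EIF2AK3 and from 0.13 to 0.03 for EIF2AK4. Phosphorylation of eIF2 was not measured. Of the 21 tested genes for eIF2 and its control, 0 had an unadjusted p under 0.05 in limma over 6 libraries, and without Control 3 0 rose and 3 fell: EIF2S1, the alpha subunit of eIF2 (-0.41), the adaptor NCK1 (-0.44) and the phosphatase subunit PPP1CC (-0.52). Among all tested genes the shares were 4.28% and 6.62%. For EIF2S1, NCK1 and PPP1CC Control 3 was the lowest library. With it the groups overlapped, and the differences were -0.16, -0.09 and -0.21. EIF2D and EIF2B4 were at 19.8 ± 2.08 and 12.7 ± 0.73 FPKM in Control against 21.3 ± 1.20 and 13.8 ± 0.74 in MT, and the difference of EIF2D was 0.10 over 6 libraries and 0.17 without Control 3.

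Several chaperones tied to the IRE1 and ATF6 arms of the unfolded protein response were lower in MT. Of 21 tested genes of the IRE1 and ATF6 arms, 8 fell and 1 rose without Control 3, against 6.62% and 4.28% of all tested genes, and the list median was -0.27 (-0.09 with 6 libraries). HSPA5 (BiP), the main chaperone of the endoplasmic reticulum, was at 827, 854 and 774 FPKM in Control against 507, 575 and 487 in MT. All MT libraries were lower, with log2 differences of -0.65 (SE 0.11, adjusted p 0.30 in limma) over 6 libraries and -0.69 (adjusted p 0.018 in limma) without Control 3. Without Control 3 the chaperone CALR fell from a mean of 575.3 to 451.5 FPKM (log2 difference -0.35) and CRELD2 from 36.1 to 27.5 FPKM (-0.38), and over 6 libraries their adjusted p was 0.66 and 0.82 in limma. CRELD2 was highest in Control 3, at 53.9 FPKM. In the fit without Control 3 MANF, HERPUD1, HSP90B1, DNAJB11 and DERL2 also fell. Of the 8, Control 3 was the lowest library of all for HSP90B1, DNAJB11 and DERL2. ATF6B rose (0.33, against 0.16 over 6 libraries), and Control 3 was its highest library. The sensor ERN1 (IRE1) at 2.97 ± 0.33 and 2.98 ± 0.18 FPKM and its target XBP1 at 23.7 ± 3.46 and 24.0 ± 1.59 (n = 3), both named after their values were seen, did not pass. Their differences went from 0.0056 to 0.07 and from 0.03 to -0.09 without Control 3.

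Other stress targets of ATF4 or CHOP were mixed. Of 37 tested in this list, 3 rose, CHAC1, PCK2 and CARS1, and 2 fell, HERPUD1 and HMOX1, with a list median of 0.04. Among all tested genes 4.28% rose and 6.62% fell. CARS1 is also counted in the amino acid branch, and HERPUD1 in the IRE1 and ATF6 arms. CHAC1, which degrades glutathione, was at 10.3, 11.0 and 14.8 FPKM in Control against 32.0, 36.6 and 19.5 in MT. It shared the order of the MT libraries with TRIB3, and the ratio of CHAC1 to TRIB3 was 0.73 to 0.87 in Control and 1.0 to 1.17 in MT. The log2 difference of CHAC1 was 1.19 (SE 0.25, adjusted p 0.43 in limma), and 1.33 (adjusted p 0.031 in limma) without Control 3. PCK2, a mitochondrial enzyme that makes phosphoenolpyruvate, was at 33.9 ± 9.07 and 77.0 ± 8.13 FPKM (n = 3), with a log2 difference of 1.39 (adjusted p 0.0033 in limma) without Control 3. HMOX1, which breaks down haem and is also a target of NRF2, was at 6.55 ± 0.67 and 3.81 ± 0.63 FPKM (n = 3). Named after their values were seen, STC2, a secreted glycoprotein, was at 22.5 ± 2.42 and 43.4 ± 15.5, and GDF15, a stress cytokine, at 39.6 ± 11.1 and 42.9 ± 3.51 FPKM (n = 3), and neither passed. The difference of GDF15 was 0.14 over 6 libraries and 0.35 without Control 3.

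In the amino acid branch of the ATF4 targets, 20 of 35 tested genes rose and 0 fell, beside 4.28% and 6.62% of all tested genes. The list median was 0.54 without Control 3 and 0.42 with 6 libraries. PHGDH, the first enzyme of serine synthesis, was at 109.6 ± 29.1 and 240.4 ± 18.8 FPKM, ASNS, which makes asparagine, was at 58.7 ± 11.4 and 124.2 ± 22.3 FPKM and SARS1, the seryl-tRNA synthetase, at 90.7 ± 5.33 and 141.8 ± 14.6 (n = 3). In 24 of the 35 genes the MT libraries had the order seen for TRIB3, highest in MT 2 and lowest in MT 3. That order was found in 18.1% of all tested genes. The genes were measured in the same 3 MT libraries, so they are not separate observations of it.

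**Figure D5:**
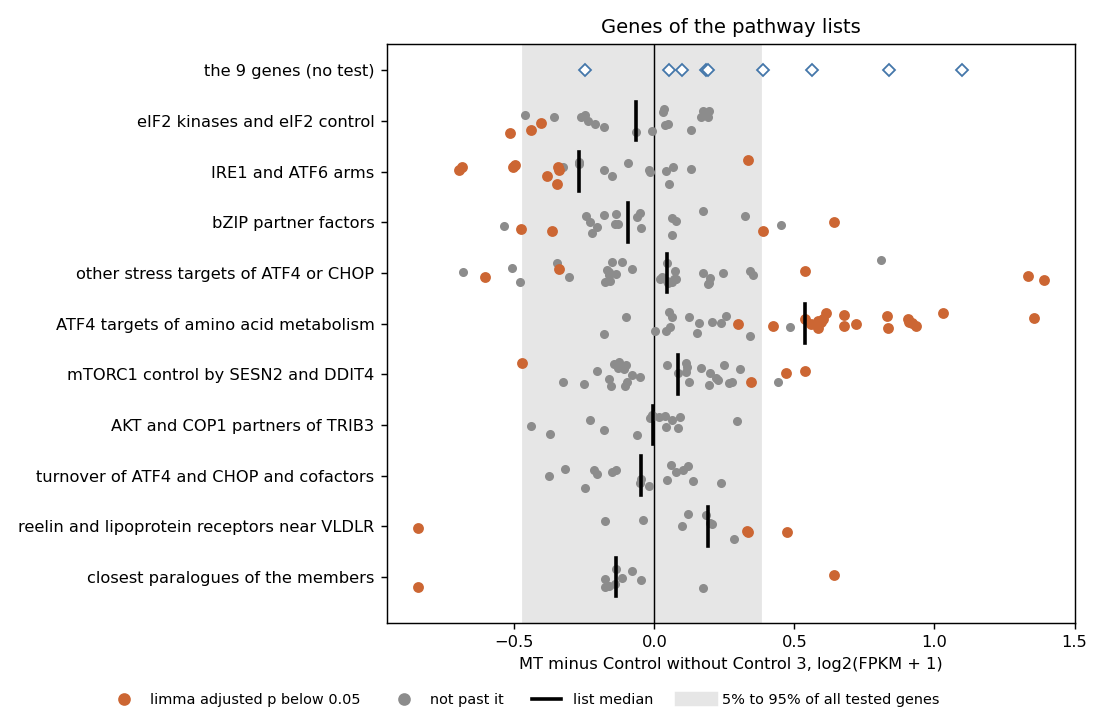
Difference of MT from Control without Control 3, on the log2(FPKM + 1) scale, for the tested genes of each pathway list. Orange points passed an adjusted p of 0.05 in limma, grey points did not, black ticks are list medians, the grey band holds the middle of all tested genes from the 5th to the 95th percentile, and diamonds are the 9 genes, with no test. The list of amino acid targets has its median at 0.54 and the IRE1 and ATF6 list at -0.27.

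Among 22 tested bZIP factors that can pair with ATF4, CHOP or C/EBP proteins, 2 rose and 2 fell, and the list median was -0.10. The shares of all tested genes were 4.28% and 6.62%. NFE2L1, which drives proteasome genes, was at 63.5 ± 5.11 and 79.8 ± 8.35 FPKM and rose, as JDP2 did. CREB1 (-0.48) and ATF1 (-0.37) fell, and with Control 3 the groups overlapped for both. FOSL1 at 14.6 ± 4.03 and 8.44 ± 0.83 and JUNB at 105.3 ± 16.2 and 81.7 ± 2.63 FPKM (n = 3), subunits of AP-1, did not overlap between the groups but did not pass in either fit. The difference of JUNB was -0.35 over 6 libraries and -0.23 without Control 3.

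In the list of mTORC1 control around SESN2 and DDIT4, 3 of 35 tested genes rose and 1 fell, with a median of 0.08. Of all tested genes 4.28% rose and 6.62% fell. EIF4EBP1, the translation repressor that mTORC1 inactivates, was at 64.0, 68.7 and 102.5 FPKM in Control against 103.7, 98.6 and 88.5 in MT. Its log2 difference was 0.33 over 6 libraries, and it rose (0.54) without Control 3, which lay within the MT range. CASTOR2 was at 7.93 ± 1.39 and 10.4 ± 1.25 FPKM and RRAGB at 13.3 ± 1.91 and 15.8 ± 1.58 (n = 3), and the difference of RRAGB went from 0.24 to 0.12 without Control 3. CASTOR2 (0.47) and MLST8 (0.34) rose and the AMPK subunit PRKAA1 fell (-0.47), and with Control 3 the groups overlapped for all 3. Over 6 libraries 0 of the 35 had an unadjusted p under 0.05 in limma. Of 15 tested partners of TRIB3, 0 passed in either fit, and 0 had an unadjusted p under 0.05 in limma over 6 libraries. COP1, the ubiquitin ligase that tribbles proteins recruit, was at 6.21 ± 0.91 and 7.17 ± 0.24 FPKM, and PPARG at 8.75 ± 0.39 and 7.64 ± 0.31 (n = 3). The difference of COP1 was 0.19 over 6 libraries and 0.09 without Control 3.

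Of 17 tested genes for the turnover of ATF4 and CHOP, 0 passed in either fit, and 0 had an unadjusted p under 0.05 in limma over 6 libraries. BTRC, the receptor of the ligase that degrades ATF4, was at 4.10 ± 0.74 and 4.70 ± 0.45 FPKM, EGLN1 at 20.2 ± 1.95 and 18.2 ± 1.16 and the initiation factor EIF1 at 163.6 ± 29.7 and 178.2 ± 6.38 (n = 3). Without Control 3 the difference went from 0.17 to 0.04 for BTRC, from -0.14 to -0.22 for EGLN1 and from 0.14 to -0.02 for EIF1. Near VLDLR, 3 of 12 tested genes of reelin and lipoprotein receptors rose and 1 fell, beside 4.28% and 6.62% of all tested genes. SORT1, a sorting receptor, was at 31.5 ± 3.29 and 42.2 ± 1.10 FPKM (n = 3) and rose (0.33), with all MT libraries above all Control libraries. LRP5 (0.47) and the chaperone LRPAP1 (0.33) also rose, and in both Control 3 was the highest library of all 6.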

How the data were processed

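RNA of 3 Control and 3 MT samples was compared, grouped by sample titles. The authors deposited FPKM per gene and library, not pooled; per the submitters' processing notes they used bcl2fastq, HISAT2, featureCounts and Subread with build Sscrofa11.1. The sources used here do not give annotation release, strand setting or scaling. Because FPKM divides by library size, very abundant transcripts shift the values of all others.

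Symbols matched 13173 of 20731 identifiers; coordinates came by symbol from RefSeq. Reads were worked out from FPKM steps, and 10950 of 10950 tested genes gave whole reads within 0.01. Chi-square per degree of freedom between replicates was 6.34 to 149, so no library was a copy.

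Genes averaging 1 FPKM or more were tested on log2(FPKM + 1), which understates changes of low genes. The test was limma 3.58.1 in R 4.3.3 (variance trend, group only, two-sided, Benjamini-Hochberg over 10950 genes, threshold 0.05). The model was also run on simulated data with independent noise per gene and no effect shared within a library. That run therefore cannot show how the model handles a library that stands apart, such as Control 3. Python 3.11.15 did the rest. The members and lists were chosen with earlier results of these data known. Named genes are the members, the 3 of smallest p per list, tested paralogues and nearest profiles, with exceptions said; the values of some listed genes are not reported here. No promoter or protein sequence was used here.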

Additional observations from a re-analysis of the deposited data

How the results depend on the processing

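Leaving out 1 library gave 0 to 1194 genes past the threshold, 0 to 47 pathway genes and a median log2 difference of the 9 genes of 0.041 to 0.27, where all 6 libraries gave 0, 0 and 0.09. The highest counts came without Control 3 and the highest median without MT 3 (0.19 without Control 3). Sample weights in limma passed 6309 genes and 129 pathway genes, with a median of 0.23, and the cause was not tested. The other pseudocounts, filters, scalings, variance models and voom, which was chosen after seeing the data, passed 0 genes. Of the 9 genes, 5 to 6 did not overlap with a library left out. Leaving a library out can only keep or raise this count, so it does not show how firm the count is. With upper quartile or median scaling 5 did not overlap, and quantile and trimmed mean scaling were not run for this count. Deviations of same-numbered libraries from their group means correlated at -0.44, 0.63 and 0.34. Deviations within a group of 3 depend on each other, and Control 1 and Control 2 both correlated with MT 2 (0.50 and 0.63). Whether replicate numbers pair the libraries can therefore not be told from them. The replicate block passed 0 genes and 0 pathway genes with a median of 0.09. The low reads of DDIT3 limit what can be seen.

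Some paralogues and other genes near 0 changed sign, and none passed in a fit that changed its sign. ATF5 was at -0.017 with median scaling, -0.039 with trimmed mean scaling and -5.2e-04 with voom, and at -0.11 to 0.17 with a library left out, while sample weights passed it at 0.20. SESN1 was at -0.013 with median scaling, -0.014 with trimmed mean scaling, -0.064 with quantile normalisation, -0.14 with sample weights and -0.16 to 0.10 with a library left out. CEBPG was at 0.0049 with upper quartile scaling and -0.14 to 0.061 with a library left out, while sample weights passed it at -0.18. Sample weights gave -0.013 for BTRC, -0.062 for EIF1, -0.13 for PPP1R15B, -0.10 for SESN3 and -0.024 for TRIB2, and a library left out gave -0.019 to 0.24 for EIF1, -0.12 to 0.20 for PPP1R15B, -0.081 to 0.34 for SESN3 and -0.046 to 0.14 for TRIB2.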

Other observations

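GLI1, the gene with the profile nearest to TRIB3, lies on chromosome 5 from 22736325 to 22747421 of Sscrofa11.1, 38020 bases before DDIT3. Of the genes between them, ARHGAP9 was at 0.62, 0.63 and 0.75 FPKM in Control against 0.98, 0.99 and 0.68 in MT, so MT 1 and MT 2 were above every Control library and MT 3 was not. On the other side of DDIT3, MBD6 (353 bases away) was at 7.79 ± 1.60 FPKM in Control against 8.21 ± 0.48 in MT and DCTN2 at 79.9 ± 4.20 and 90.3 ± 5.10 (n = 3). INHBC, 56675 bases from DDIT3, was at or under 0.11 FPKM in every library. These neighbours were looked at after the values of GLI1 had been seen, and no test was made. MARS, the RefSeq gene whose end overlaps DDIT3 by position, is the methionyl-tRNA synthetase MARS1 of the amino acid list, which was at 53.0, 54.2 and 75.3 FPKM in Control against 76.5, 69.3 and 71.2 in MT. MARS1 rose without Control 3 (0.42, adjusted p 0.026 in limma), Control 3 lay within the MT range, and DDIT3 stayed under 1 FPKM throughout.

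FGF21, a secreted stress hormone and a target of ATF4 that lay below the filter, was at 0.70, 0.58 and 0.71 FPKM in Control against 0.79, 0.79 and 0.82 in MT. It was not tested and its counting error is not given here. Nothing is therefore read from the difference or from the closeness of the MT libraries.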
